A study of Rattus norvegicus with 90 samples.

Results

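The comparison described here is the effect of early systemic interleukin-1β (IL-1β) on microglia-enriched brain cells at postnatal day 22 (P22), in the sequencing run whose animals received a sham dose through the nose. Its members were chosen by sample title: the 3 libraries of IL-1β-injured rats given no cells (the injured group) and the 3 libraries of PBS-injected rats (the control group), which are 6 of the 90 samples and 2 of the 30 groups of the series. All rats were male Wistar Han pups. The injured group had received recombinant mouse IL-1β into the peritoneum at 20 µg/kg, 2 times a day from P1 to P4 and once at P5, and the control group the same volume of PBS. Both groups were then given a sham dose by the intranasal route at P20, and brains were taken 48 h later. The other 9 libraries of the run came from rats that had the same IL-1β injections and then human mesenchymal stem cells (HuMSC) through the nose at 20, 50 or 125 M cells per kg. They are called the cell-treated libraries below and are used only to show where a gene lies outside the 6 members. They are read against the same 3 controls that picked many of the genes, so control values alone could place them on the injured side. The share of all genes with such a position was not counted, so these positions are no independent support. For comparison of the injury effect, injured and sham-treated control groups of 3 libraries each were read from the intranasal runs at P7 and P12 (sham dose at P5 and P10, cells taken 48 h later) and from the intravenous runs at P7, P12 and P22, which had the sham dose into a vein on the same days. Brains were perfused, freed of olfactory bulbs and cerebellum, dissociated with an adult brain kit (a neural tissue kit at P7) and enriched with CD11b/c microbeads, which hold any cell that carries CD11b or CD11c. Poly(A)-selected RNA was sequenced from strand-specific libraries with 75-base single reads. Nothing in the labels says that replicates came from separate litters or isolations, so p-values measure the spread between these libraries, which may be partly technical.

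IL-1β is a cytokine that binds the receptor IL1R1 with its partner IL1RAP and signals through MYD88 and IRAK kinases to NF-kB. In newborn rodents, repeated systemic IL-1β is used to model the inflammation that accompanies preterm birth, and microglia, the resident macrophages of the brain, respond to it. The comparison asks what of the injury can still be read in CD11b/c-enriched cells weeks after the last injection.

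The members are microglia-rich by their markers. P2ry12, the purinergic receptor that marks homeostatic microglia, was at 1677 to 2580 CPM (the count per 1 M counts of the library, scaled by TMM) in the 6 libraries, and the 24 tested genes of the homeostatic list summed to 88823 to 93545 CPM in the injured and 83798 to 97454 CPM in the control libraries. Markers of other cells were present as well: oligodendrocyte markers summed to 3551 to 4650 CPM in the injured and 4083 to 4187 CPM in the control libraries, neutrophil markers to 446 to 569 and 503 to 582 CPM, and neuron markers to 105 to 138 and 140 to 145 CPM. Over the 15 libraries, totals ran from 14.6 to 26.1 M counts and mitochondrially encoded genes took 2.46 to 3.74% of them.

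One member stands apart from the rest of the run. Injured replicate 1 had the fewest counts (14.6 M) and the fewest detected genes, 15683 against 16300 to 17187 in the other 14 libraries. Across 10278 genes whose log2 CPM averaged 2 or more, its root mean square departure from the median of the others was 0.609 on the log2 scale, against 0.184 to 0.333 for each of the others. In it, 909 genes (8.84%) lay more than 1 log2 unit from that median, 803 below and 106 above, where the other libraries had 28 to 255 such genes. The departure ran with gene span: its median was 0.34 in the 2570 genes with the shortest span and −0.38 in the 2570 with the longest, and Spearman's rho between departure and span was −0.48, against −0.20 to 0.33 in the others. Long genes such as Kmt2a (22.3 CPM against 79.6 to 147 CPM in the others) and Birc6 (14.9 against 58.5 to 102 CPM) were low in it. Rpl30 (50.2 against 1.18 to 21.3 CPM) and S100a10 (81.0 against 6.96 to 31.6 CPM) were high in it, but both also varied widely among the other libraries. Correlations of log2 CPM across genes with the other 5 members were 0.961 to 0.964, against 0.986 to 0.989 among those 5. The submitters state RNA quality above a limit of 7 for their samples, but the labels give no value for injured replicate 1. Values without injured replicate 1 are given beside some of the lists and some of the genes below. Where a list or gene has no such value, its dependence on this library is not shown.

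**Figure D1:**
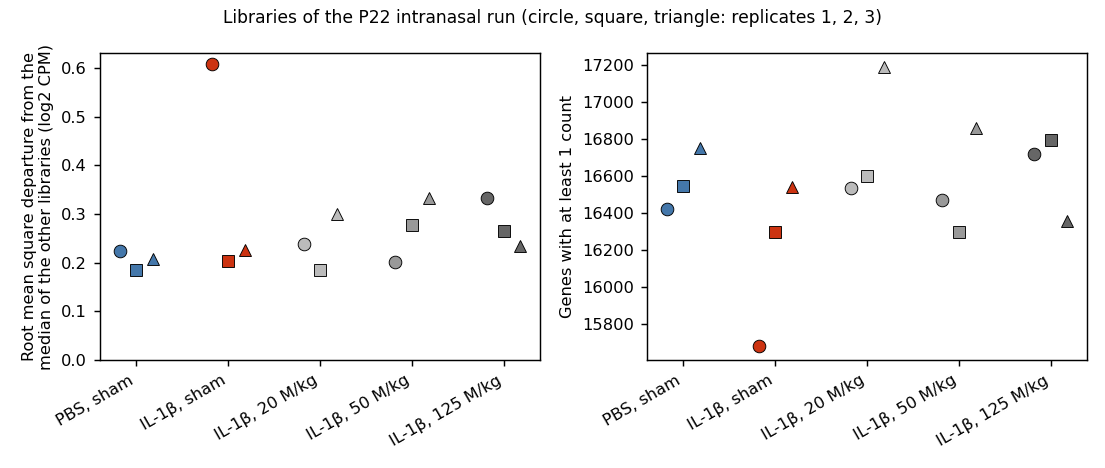
Departure from the other libraries (left, root mean square in log2 CPM) and number of genes with at least 1 count (right, axis not starting at 0) for the 15 libraries of the run, by group. Circles, squares and triangles are replicates 1, 2 and 3; injured replicate 1 sits at 0.609 and 15683 genes, apart from the other 14 libraries.

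No gene passed the test between injured and control. Of 13594 genes tested, 0 (0%) reached an adjusted p under 0.05 in edgeR's quasi-likelihood test with Benjamini-Hochberg adjustment. At an unadjusted p under 0.05 there were 385 higher (2.83%) and 261 lower (1.92%) genes. DESeq2, run as an alternative, called 9 genes (0.0662%), all of which are named below. In 810 genes (5.96%) the 3 injured libraries were all above the 3 controls, and in 681 (5.01%) all below. The median standard error of a log2 fold change was 0.18, and for 10400 genes (76.5%) the 95% interval lay within 1 log2 unit on either side of 0. Among the 8997 genes with a mean log2 CPM above 3 that share was 94.5%. An exact permutation test of 3 against 3 libraries cannot give a two-sided p below 0.1, so single values carry none here.

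Among the genes that were lower in all 3 injured libraries, Dsp came first. Dsp encodes desmoplakin, the protein that ties desmosomes to intermediate filaments, and lies on chromosome 17 at 27286796 to 27334379 on the minus strand, in the deposited coordinates, whose build the sources used here do not name. It was at 5.67, 9.58 and 8.83 CPM in the injured and 25.3, 27.8 and 22.9 CPM in the control libraries. The groups did not overlap, and all 9 cell-treated libraries, at 8.92 to 21.2 CPM, were below the lowest control too. The log2 fold change was −1.65 ± 0.30 (SE; 95% interval −2.29 to −1.02), which is 3.14-fold lower, with an adjusted p of 0.445 in edgeR's quasi-likelihood test. DESeq2 gave an adjusted p of 0.000457, and without injured replicate 1 the log2 fold change was −1.47. The same contrast was −0.32 at P7 and −0.30 at P12 in the intranasal runs, and −1.83, −1.63 and −0.23 at P7, P12 and P22 in the intravenous runs, none of which passed the edgeR test.

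Ephb1, a receptor tyrosine kinase for ephrin-B ligands, lies on chromosome 8 at 110376954 to 110813000 on the minus strand. Its level was 10.6, 11.8 and 20.7 CPM in the injured libraries and 34.5, 34.1 and 28.3 CPM in the controls. All 9 cell-treated libraries (14.1 to 26.3 CPM) were again below every control. The log2 fold change was −1.16 ± 0.22 (edgeR adjusted p 0.445, DESeq2 adjusted p 0.00151). Of the leading genes, Ephb1 was also lower in the earlier intranasal runs, by a log2 fold change of −1.11 at P7 and −1.64 at P12, and it passed the edgeR test in both. The intravenous runs gave −0.81 at P7, −0.91 at P12 and 0.09 at P22, without passing. Because the naming rule also takes genes called at P12, its P12 value is part of how it was chosen.

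Plxna2, a plexin receptor for semaphorins, was at 12.4, 24.3 and 22.9 CPM in the injured and 45.3, 61.6 and 50.1 CPM in the control libraries. The log2 fold change was −1.40 ± 0.34, with an adjusted p of 0.755 in edgeR and 0.0498 in DESeq2. Here the cell-treated libraries did not follow the injured group: they spread from 21.2 to 87.5 CPM, with 2 above and 3 below all controls.

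The other lower genes of the naming rule were less far from the controls. Col4a2, a basement membrane collagen chain, was at 106, 162 and 157 CPM against 238, 250 and 277 CPM (log2 fold change −0.85 ± 0.23), and 8 of the 9 cell-treated libraries were below every control. Pamr1, a secreted protease-like protein, was at 9.40, 14.3 and 12.8 CPM against 25.4, 23.3 and 20.5 CPM (−0.92 ± 0.25). The injured and control libraries of these genes did not overlap. Zc3h12c, an RNA-binding protein of the Regnase family (−0.81 ± 0.20), Prkar2b, a regulatory subunit of protein kinase A (−0.62 ± 0.17), the zinc finger gene Zkscan7 (−0.67 ± 0.17) and Nedd4l, a ubiquitin ligase (−0.36 ± 0.10), were lower in all 3 injured libraries as well. The edgeR adjusted p was 0.755 for each of these 6 genes. Injured replicate 1, in which long genes were low, had the lowest value of the 6 libraries for Ephb1, Plxna2, Col4a2 and Pamr1. The other injured libraries were below every control for these as well. Log2 fold changes without injured replicate 1 are not given for Ephb1, Plxna2 or the genes of this paragraph.

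**Figure D2:**
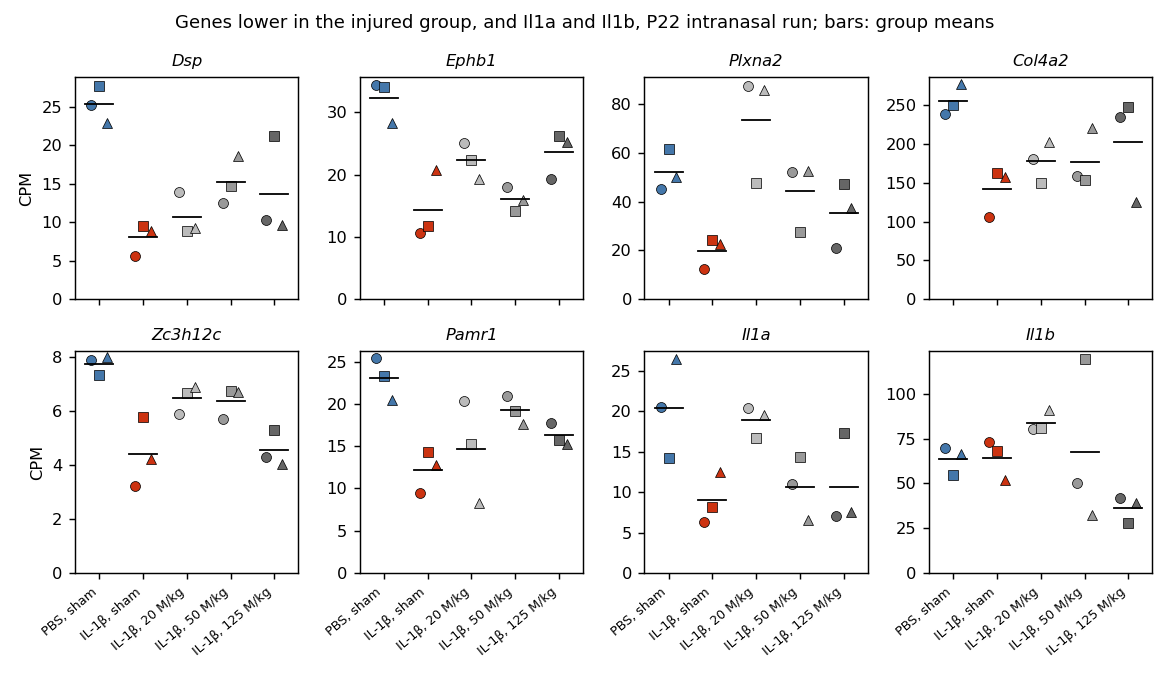
CPM of 6 genes with a lower level in the injured group and of Il1a and Il1b, in each library of the run; bars are means of 3 libraries, and circles, squares and triangles are replicates 1, 2 and 3. The 3 injured libraries are below all controls for Dsp, Ephb1, Plxna2, Col4a2, Zc3h12c, Pamr1 and Il1a, and overlap them for Il1b.

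Of the genes that were higher in all 3 injured libraries, Tbx1 had the smallest adjusted p, 0.0769 in edgeR. It encodes a T-box transcription factor and was barely detected. The injured libraries held 22, 18 and 26 counts (1.58, 1.21 and 1.39 CPM) and the controls 0, 3 and 0 (0, 0.157 and 0 CPM), where a count of 0 allows up to 3. Summed over libraries and scaled by depth, 66 against 3 counts is a ratio of 25.4, with a counting interval of 8.32 to 126 that leaves out the spread between libraries. The 9 cell-treated libraries, which had the same IL-1β, ran from 0.411 to 1.14 CPM, all above every control. DESeq2 gave an adjusted p of 0.0016. The fitted log2 fold change was 0.77 at P7 and 2.40 at P12 in the intranasal runs, and ran from 1.02 at P7 to 4.46 at P22 in the 3 intravenous runs. Tbx1 and the pair of loci that follow are below the naming rule's level or have provisional names and are given because an alternative fit called them.

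AABR07000158.1 and AABR07000137.1, loci with clone names on chromosome 1, showed the reverse. AABR07000158.1 was at 0.933, 0.268 and 0.428 CPM in the injured and 5.33, 3.83 and 4.93 CPM in the control libraries, and AABR07000137.1 at 0.431, 0.335 and 0.268 CPM against 4.37, 3.93 and 4.41 CPM. All 9 cell-treated libraries were below every control for both. The log2 fold changes were −3.12 ± 0.66 and −3.62 ± 0.87, with DESeq2 adjusted p of 0.00418 and 0.0253. They lie at 1617385 to 1619634 on the plus strand and 1390128 to 1392329 on the minus strand, and reads of near-identical copies could be divided between them.

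The remaining higher genes by the naming rule were mast cell proteases and class II genes, described next, and 6 others. Anxa4, a calcium-dependent membrane-binding annexin, was at 30.2, 20.5 and 22.5 CPM against 14.3, 18.7 and 13.6 CPM (log2 fold change 0.65 ± 0.16). Clec12a, an inhibitory C-type lectin of myeloid cells, was at 14.6, 12.9 and 12.9 CPM against 8.84, 6.76 and 6.80 CPM (0.85 ± 0.25). The others were Rftn1, a lipid raft protein (0.93 ± 0.26), Pdgfrl (0.77 ± 0.23), Marveld1 (0.64 ± 0.19) and Tmbim1 (0.41 ± 0.11). Each had an edgeR adjusted p of 0.755, and the 3 injured libraries were above the 3 controls in all 6. For Marveld1 the 9 cell-treated libraries were above every control as well, and its log2 fold change was 0.37 without injured replicate 1.

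Mast cells are tissue-resident granulocytes that store histamine, tryptases, chymases and carboxypeptidase, and in the brain they sit mainly in the meninges and around vessels. In this comparison 4 of their protease genes were above every control in all 3 injured libraries. Tpsab1, a tryptase, was at 4.24, 6.90 and 4.66 CPM in the injured and 1.70, 0.944 and 1.25 CPM in the control libraries, with a log2 fold change of 2.02 ± 0.46 (95% interval 1.03 to 3.01), 4.06-fold. Mcpt1l1, a chymase, was at 23.4, 20.2 and 13.7 CPM against 7.09, 6.13 and 5.19 CPM, a log2 fold change of 1.63 ± 0.40. All 9 cell-treated libraries were above every control for both genes. The edgeR adjusted p was 0.755 for each and the DESeq2 adjusted p 0.0233 and 0.042. Without injured replicate 1 the log2 fold changes were 2.15 and 1.46.

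Other mast cell genes had smaller fold changes. Tpsb2, the second tryptase, was at 3.73, 2.48 and 2.68 CPM against 1.13, 1.10 and 0.830 CPM (1.53 ± 0.47), and all 9 cell-treated libraries were above the controls. Cpa3, mast cell carboxypeptidase, was at 8.90, 6.57 and 5.51 CPM against 3.63, 2.15 and 2.54 CPM (1.33 ± 0.45), with 8 of 9 cell-treated libraries above the controls. Cma1, a chymase, overlapped: 6.25, 5.23 and 3.00 CPM against 2.72, 1.68 and 3.01 CPM (0.96 ± 0.43). Ms4a2, the beta chain of the IgE receptor, was near the limit of detection at 1.58, 0.469 and 1.07 CPM against 0.283, 0.210 and 0.726 CPM (1.33 ± 0.62).

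Other genes of the list, several of which other cells also express, had smaller fold changes. Hdc, which makes histamine, gave 0.86 ± 0.52, but 0.35 without injured replicate 1, and Mcpt2 gave 0.83 ± 0.42. The receptor gene Mrgprx3 was at 56.0, 51.1 and 50.4 CPM against 45.0, 38.4 and 40.1 CPM (0.35 ± 0.13). Kit, the stem cell factor receptor, was 0.13 ± 0.33, the transcription factor Gata2 0.16 ± 0.30, and Il1rl1, the IL-33 receptor, −0.31 ± 0.18. Of 22 listed mast cell genes 19 matched a row and 12 were tested, of which 11 had a positive sign, 7 were higher and 0 lower at an unadjusted p under 0.05 and 6 had no overlap. Over all genes tested the unadjusted shares were 2.83% higher and 1.92% lower, and 6927 of 13594 had a positive sign. The median log2 fold change over the 12 was 0.91, against 0.006 over all genes tested. Without injured replicate 1 it was 0.66, with 4 of 12 higher at the unadjusted threshold, where 186 genes (1.35%) were higher and 196 (1.42%) lower among all genes tested in that fit. The summed level of the list was 176, 201 and 186 CPM in the injured and 161 to 173 CPM in the control libraries. This sum includes Il1rl1 (26655 counts over the 15 libraries) and Mrgprx3, neither of them a protease, so it does not follow the proteases alone. In bulk RNA, more cells of a type and more RNA per cell cannot be told apart. The chymases and the tryptases are near-identical copies, so the counts of single members are uncertain.

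The sign of the contrast for these genes varied between the other runs, which hold separate control libraries. The median over the list was 1.36 at P7 and 0.30 at P12 in the intranasal runs and 1.45 at P22 in the intravenous run, but −0.34 at P7 and −0.63 at P12 in the intravenous runs. For Tpsab1 these 5 values, in the same order, were 2.36, 1.66, 1.39, −0.39 and −0.74. For Mcpt1l1 they were 1.63, 0.31, 1.56, −0.89 and −0.88, and for Cpa3 1.84, 0.35, 1.42, −0.58 and −0.84. Of these, Tpsab1 and Cpa3 at P7 in the intranasal run passed the edgeR test.

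The promoters of the leading proteases are shown because both genes were higher in every injured library. The sequences are from RefSeq on build GRCr8, 250 bases before to 50 after the start, 5′ to 3′ on the gene's strand. Capitals mark GATAA on either strand, the core of the sites bound by GATA factors, which act in mast cells. Tpsab1 (chr10:14867253-14867552, minus strand) and Mcpt1l1 (chr15:33876846-33877145, minus strand) read as follows.
Tpsab1: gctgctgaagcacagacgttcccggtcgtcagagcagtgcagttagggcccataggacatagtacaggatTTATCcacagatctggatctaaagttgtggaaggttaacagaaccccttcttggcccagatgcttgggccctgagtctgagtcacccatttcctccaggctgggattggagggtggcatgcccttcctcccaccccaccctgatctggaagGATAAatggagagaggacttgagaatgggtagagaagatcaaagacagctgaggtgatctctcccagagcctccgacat
Mcpt1l1: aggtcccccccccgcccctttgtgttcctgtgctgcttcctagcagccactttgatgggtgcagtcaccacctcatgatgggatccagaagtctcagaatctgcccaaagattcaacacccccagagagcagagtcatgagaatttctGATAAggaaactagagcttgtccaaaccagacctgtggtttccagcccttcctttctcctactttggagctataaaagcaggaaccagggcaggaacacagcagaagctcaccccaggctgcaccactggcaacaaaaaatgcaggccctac
GATAA was in the promoters of 4 of 8 mast cell genes found (Tpsab1, Mcpt1l1, Cpa3 and Cma1), and 26.5% of all 33469 RefSeq promoters of that length hold it. The match is a description of the letters only.

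MHC class II molecules present peptides from ingested material to CD4+ T cells, and their genes are controlled together by the coactivator CIITA. Several of them were higher in the injured libraries, by smaller steps than the mast cell genes. RT1-Db1, the beta chain of the rat DR-type molecule, was at 213, 144 and 136 CPM against 105, 86.1 and 95.9 CPM (log2 fold change 0.78 ± 0.22). RT1-Ba, a DQ-type alpha chain, was at 237, 182 and 204 CPM against 150, 134 and 155 CPM (0.50 ± 0.19). Cd74, the invariant chain that guards the peptide groove, was at 1028, 737 and 754 CPM against 654, 518 and 536 CPM (0.56 ± 0.19). The 3 genes had no overlap between groups, and 6, 7 and 6 of the 9 cell-treated libraries were above all controls.

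Their partner chains were less clear. RT1-Bb was at 192, 216 and 105 CPM against 113, 63.6 and 72.2 CPM (1.04 ± 0.34), so that 1 injured library lay below the highest control. RT1-Da was at 274, 217 and 254 CPM against 202, 168 and 201 CPM (0.38 ± 0.21), without overlap. RT1-DOb, the beta chain of the DO molecule that modulates peptide loading, was at 34.8, 8.31 and 3.64 CPM against 3.34, 1.31 and 2.13 CPM. Its log2 fold change of 2.78 ± 0.68 (DESeq2 adjusted p 0.0205) rested on injured replicate 1: without that library it was 1.39. Ciita itself was at 4.59, 10.3 and 8.14 CPM against 4.76, 5.61 and 7.83 CPM (0.34 ± 0.31), with overlap. The edgeR adjusted p of every gene in this group was 0.755 or higher.

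Of 11 tested genes for class II and co-stimulation, 9 had a positive sign, 5 were higher and 0 lower at an unadjusted p under 0.05, and 5 were above all controls in every injured library, where the shares over all genes were 2.83%, 1.92% and 5.96%. Their median log2 fold change was 0.38 with and without injured replicate 1, although the count at the unadjusted threshold was 3 without it (1.35% over all genes). Among 13 class I genes, 10 had a positive sign and 2 were higher at the unadjusted threshold, with a median of 0.16, and without injured replicate 1 none were. The class II median was 0.92 at P7 and 0.39 at P12 in the intranasal runs, and 1.00, 0.10 and −0.33 at P7, P12 and P22 in the intravenous runs. For Cd74 these 5 values were 1.09, 0.41, 1.20, 0.04 and −0.42, and for RT1-Db1 1.00, 0.44, 1.21, 0.14 and −0.36. The difference between the P22 runs did not pass the test for any of these genes. Class II genes have near-identical copies in the rat, and their counts could be divided between copies.

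**Figure D3:**
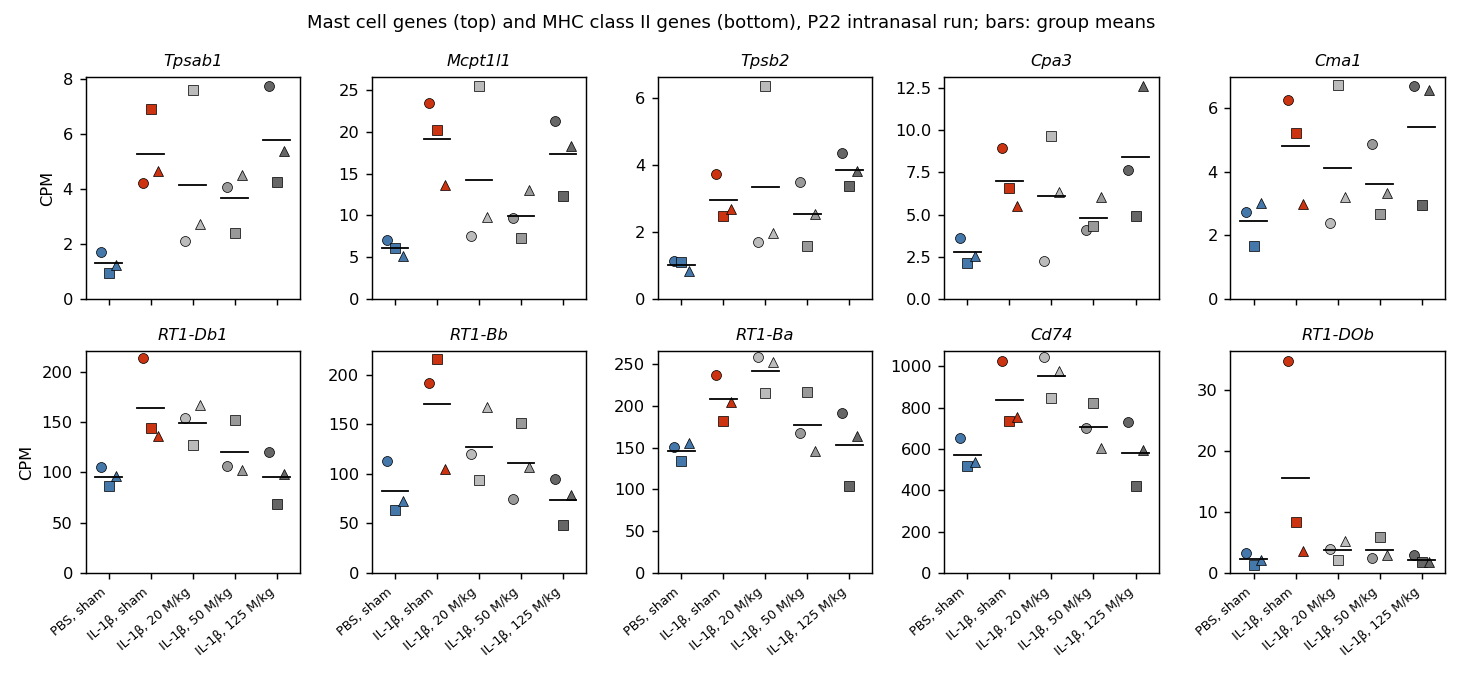
CPM of 5 mast cell genes (top) and 5 class II genes (bottom) in each library of the run; bars are means of 3 libraries, and circles, squares and triangles are replicates 1, 2 and 3. For Tpsab1, Mcpt1l1 and Tpsb2 all 12 libraries from IL-1β-injected rats are above the 3 controls, while RT1-DOb reaches 34.8 CPM in injured replicate 1 alone. Tpsab1, Mcpt1l1 and Tpsb2 were picked with the same 3 controls.

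Class II promoters carry an X box and a Y box at a set distance, which bind the RFX and NF-Y complexes. The promoters of a DR-type pair are shown because both motifs can be seen in them. Capitals mark CTAGCAAC, an X box core, and GATTGG, the Y box core, on either strand. RT1-Db1 (chr20:4560113-4560412, minus strand) and RT1-Da (chr20:4515165-4515464, plus strand), again from RefSeq on GRCr8, read as follows.
RT1-Db1: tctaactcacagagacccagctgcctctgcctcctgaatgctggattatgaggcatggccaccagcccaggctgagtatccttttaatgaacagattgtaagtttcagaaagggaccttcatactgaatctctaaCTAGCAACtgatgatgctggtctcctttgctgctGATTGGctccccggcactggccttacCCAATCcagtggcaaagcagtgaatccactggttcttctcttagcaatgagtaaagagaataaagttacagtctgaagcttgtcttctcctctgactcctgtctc
RT1-Da: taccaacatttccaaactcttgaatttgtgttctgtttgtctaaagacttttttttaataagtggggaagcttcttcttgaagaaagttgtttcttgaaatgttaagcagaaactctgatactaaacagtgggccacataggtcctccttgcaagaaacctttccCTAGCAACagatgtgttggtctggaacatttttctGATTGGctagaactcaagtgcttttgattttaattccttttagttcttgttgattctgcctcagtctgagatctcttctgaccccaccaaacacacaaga
Of 7 promoters found for class II genes and Cd74, 3 (RT1-Da, RT1-Db1 and RT1-DOb) held both cores. Among all 33469 promoters CTAGCAAC was in 1.30%, GATTGG in 14.8% and both in 0.236%. The X box letters were chosen after these promoters had been read, so the shares are a description and no test.

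Of the IL-1 ligands tested, Il1a was lower and Il33 higher in every injured library, and Il1b overlapped. Il1b was at 72.9, 67.9 and 51.9 CPM in the injured and 69.7, 54.6 and 66.1 CPM in the control libraries, a log2 fold change of 0.02 ± 0.33 (95% interval −0.70 to 0.73) whose sign depends on the libraries kept. Il1a, the second ligand of the same receptor, was lower at 6.25, 8.18 and 12.5 CPM against 20.6, 14.2 and 26.5 CPM, with no overlap and a log2 fold change of −1.18 ± 0.37 (edgeR adjusted p 0.755). In 4 of 9 cell-treated libraries Il1a was also below every control. In the intranasal runs its log2 fold change was 0.19 at P7 and 0.46 at P12, and in the intravenous runs 0.07, −0.48 and −0.40 at P7, P12 and P22.

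Il33, an alarmin ligand of the same family, was at 140, 178 and 188 CPM in the injured and 113, 107 and 102 CPM in the control libraries. There was no overlap, but the log2 fold change of 0.66 ± 0.42 had an interval of −0.24 to 1.55 (edgeR adjusted p 0.755). The cell-treated libraries, which share the fit, spread from 38.4 to 226 CPM. It falls outside the naming rule and was chosen after its values were seen.

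All 5 tested receptors of the list had a negative sign with a median of −0.35, which was −0.14 without injured replicate 1. Il1r1 went from −0.35 ± 0.31 to −0.14 without that library, and Il1rap from −0.14 ± 0.25 to 0.13. Il1rn, the receptor antagonist, was 0.09 ± 0.36. The adaptor Myd88 was at 94.4, 96.5 and 104 CPM against 98.3, 99.4 and 96.6 CPM, with overlap. Traf6, the ubiquitin ligase downstream of it, was −0.42 ± 0.18 (−0.24 without injured replicate 1), and Nlrp3, the inflammasome sensor, −0.23 ± 0.10, both past the unadjusted threshold with all libraries. Nfkbia, the NF-kB inhibitor that NF-kB itself induces, was 0.51 ± 0.26 with injured replicate 1 and 0.18 without it. Of 41 tested IL-1 pathway genes, 23 had a positive sign, 0 were higher and 3 lower at the unadjusted threshold (2.83% and 1.92% over all genes), and the median was 0.01. Without injured replicate 1 the counts were 1 higher and 1 lower.

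The 4 microglial identity genes named here had negative signs, none past the unadjusted threshold. Csf1r, Trem2 and Cst3, which the naming rule also takes, are not printed with their levels. Of the 24 homeostatic genes tested, 9 had a positive sign. P2ry12 was at 1677, 1999 and 2368 CPM in the injured against 2580, 2327 and 2210 CPM in the control libraries (log2 fold change −0.24 ± 0.15, and −0.12 without injured replicate 1). Cx3cr1, the fractalkine receptor, was at 1292, 2833 and 3002 CPM against 3007, 2895 and 2808 CPM, so its −0.29 ± 0.21 rested on injured replicate 1 and was 0.003 without it. Tmem119, a surface marker of microglia, was −0.33 ± 0.31 and Sall1, a transcription factor of microglial identity, −0.26 ± 0.12 (−0.13 without that library). In 3 of the 24 the injured libraries were all above the controls and in 1 all below (5.96% and 5.01% over all genes). None of the 24 was past the unadjusted threshold in either direction, and their median was −0.06. Without injured replicate 1 the median was 0.02, with 1 gene higher at that threshold (1.35% over all genes). In that case 5 genes of the list were above all controls and 2 below, beside 1472 and 1238 of 13594 genes.

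Lists for microglial states gave similar values. Inflammatory cytokines and NF-kB targets had a median of 0.18 over 22 genes, which became −0.07 without injured replicate 1. With all libraries 2 were higher and 1 lower at the unadjusted threshold (2.83% and 1.92% over all genes). Of the 22, 16 had a positive sign. The chemokine gene Ccl12, at −0.72 ± 0.30, had the lowest log2 fold change of this list. Vcam1 and Cxcl16, which the naming rule also takes from it, are not printed. Interferon response genes (29, median 0.01), complement and phagocytosis genes (32, 0.01), the Wnt pathway (42, −0.04), the cell cycle (41, −0.04) and cholesterol synthesis (25, −0.03) were centred near the 0.006 of all genes. In the disease-associated and axon-tract list the median over 27 genes was 0.14, and −0.01 without injured replicate 1. In it, Ch25h, which makes an oxysterol, was at 259, 201 and 188 CPM against 111, 87.9 and 189 CPM (0.74 ± 0.26), and Lpl, lipoprotein lipase, was −0.53 ± 0.23.

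Values of the metabolic lists depended in part on injured replicate 1. In oxidative phosphorylation 27 of 29 genes had a positive sign with a median of 0.19, but the median was 0.01 without that library. Cox5a, a subunit of cytochrome c oxidase, was at 72.9, 39.5 and 38.4 CPM against 39.0, 35.6 and 34.7 CPM, a log2 fold change of 0.46 ± 0.19 that was 0.09 without it. Of 23 glycolysis and hypoxia genes 6 were higher at the unadjusted threshold with all libraries (2.83% over all genes) and 1 without injured replicate 1 (1.35% over all genes). Their median was 0.16, and 0.095 without that library. With and without it, 8 were above all controls (810 and 1472 of 13594 genes), and 2 and 3 were below (681 and 1238). Slc16a3, a lactate exporter, was the gene least tied to injured replicate 1, at 19.6, 15.7 and 14.2 CPM against 7.60, 13.4 and 8.77 CPM (0.73 ± 0.24, and 0.58 without that library).

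Values of the neutrophil list also depended on that library. S100a8 and S100a9, calcium-binding proteins that fill the neutrophil cytosol, were at 67.6, 13.6 and 21.1 CPM and 105, 23.2 and 43.7 CPM in the injured libraries, against 25.3, 32.4 and 48.2 CPM and 51.5, 69.3 and 90.0 CPM in the controls. Injured replicate 1 was above all controls for both and the other injured libraries below all controls. The log2 fold changes were −0.06 ± 0.55 and −0.30 ± 0.45 with it and −1.03 and −1.07 without. Mmp9, a granule protease, went from −0.76 ± 0.45 to −1.49, and Fcnb, a ficolin of myeloid granules, from −0.82 ± 0.26 to −1.06. The median of the 16 tested neutrophil genes was −0.17, with 1 lower at the unadjusted threshold (1.92% over all genes). Without that library it was −0.99 with 5 lower, where 1.42% of all genes were lower and none passed the adjusted threshold. The list's median was 1.98 at P7 and 0.25 at P12 in the intranasal runs, and 0.34, 0.02 and 0.78 at P7, P12 and P22 in the intravenous runs.

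Other cell lists had medians between −0.32 (monocyte, 14 genes, with Cd44 at −0.45 ± 0.20) and 0.23 (fibroblast, 10 genes). Border-associated macrophage genes were at 0.08 (14 genes), T and NK cell genes at 0.01 (15), B cell genes at 0.05 (5), endothelial genes at 0.02 (13) and oligodendrocyte genes at 0.04 (18). None of the border-associated macrophage genes was past the unadjusted threshold. In 4 of the 14 the injured libraries were all above the controls and in 0 all below (5.96% and 5.01% over all genes). Without injured replicate 1 there were 7 and 0, beside 1472 and 1238 of 13594 genes, and the median was 0.16.

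**Figure D4:**
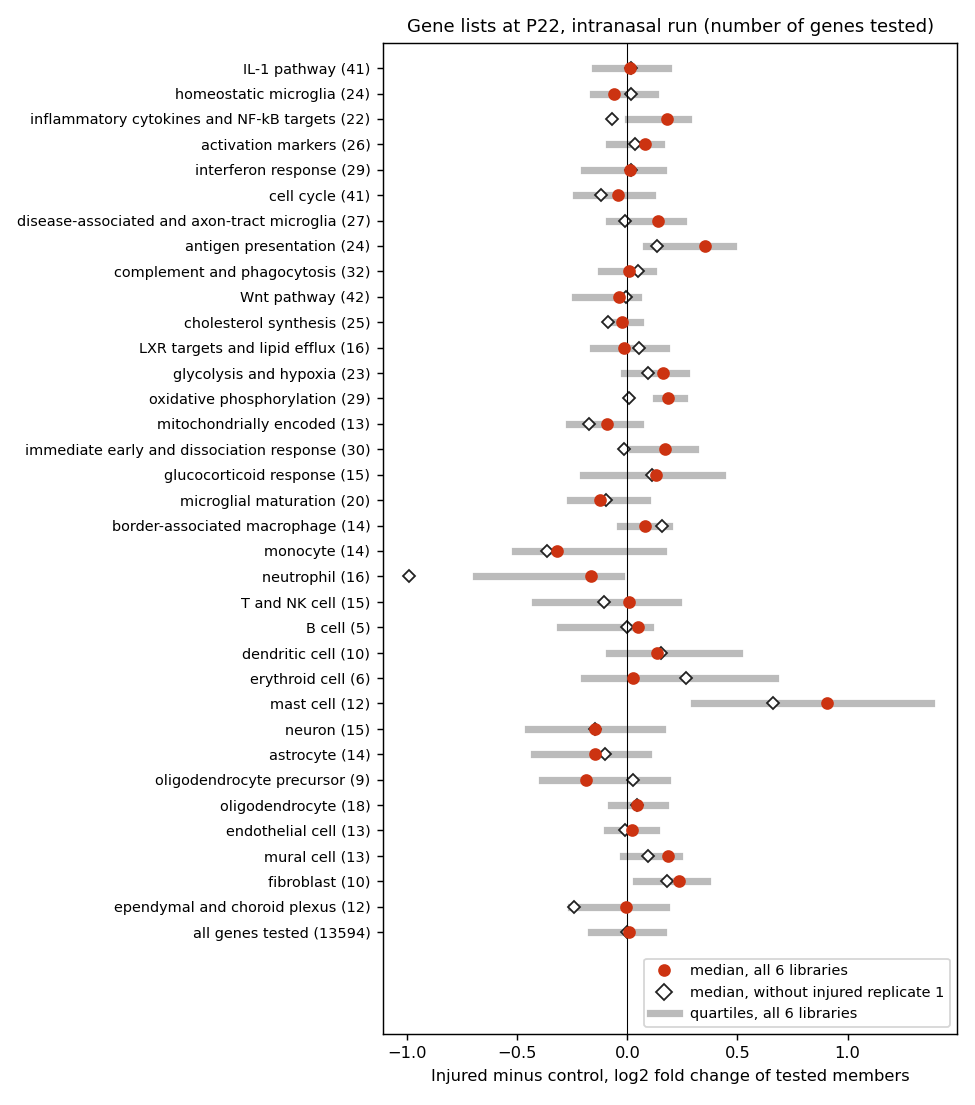
Log2 fold changes (injured minus control) over the tested members of each list, with the number tested in brackets: filled circles are medians with all 6 libraries, grey bars their quartiles, open diamonds medians without injured replicate 1. The mast cell median is 0.91 and 0.66 without that library, the neutrophil median −0.17 and −0.99, and the oxidative phosphorylation median 0.19 and 0.01.

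The same contrast called genes at the earlier ages, and these were then read at P22. At P7, 371 genes (2.67%) were higher and 401 (2.89%) lower in the injured group, and at P12 222 (1.6%) were higher and 161 (1.16%) lower, in edgeR fits of the intranasal runs with an adjusted p under 0.05. Of those tested at P22, 214 of 360 (59.4%) P7-higher genes and 201 of 392 (51.3%) P7-lower genes had the same sign, with median P22 log2 fold changes of 0.05 and −0.003. For P12 the same sign was found in 92 of 221 (41.6%) higher and 51 of 158 (32.3%) lower genes, with medians of −0.05 and 0.12. Over all genes tested in both runs, called or not, the shares were 46.5% of 13254 for P7 and 42.4% of 13306 for P12.

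These shares depended on injured replicate 1. Without it they were 63.3% and 60.2% for the P7-called and 62.0% and 60.1% for the P12-called genes, and 54.5% and 52.9% over all genes. The P22 medians of the called genes stayed within 0.07 of 0 in that fit, against medians of 0.76 and −0.59 at P7 and 0.60 and −0.93 at P12 in the runs that called them.

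**Figure D5:**
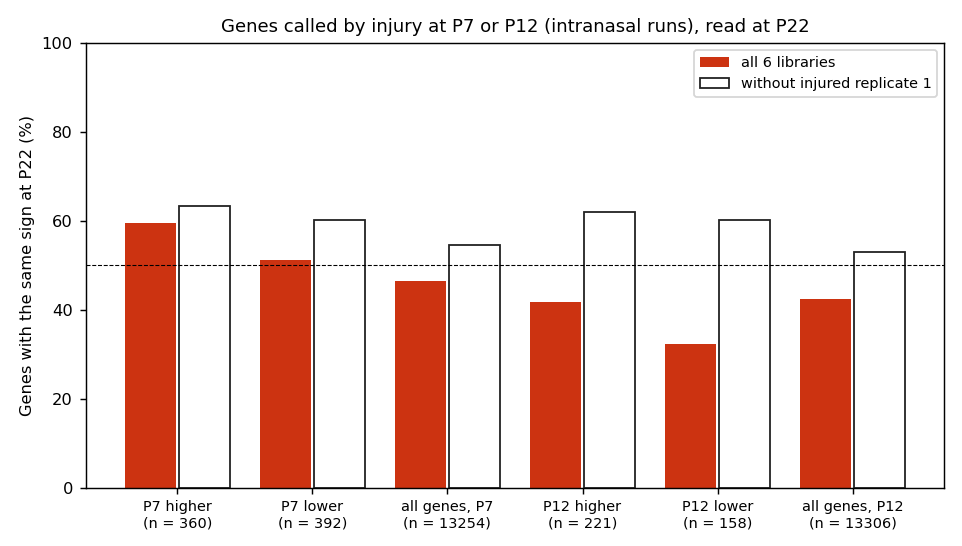
Share of genes called by injury at P7 or P12 (adjusted p under 0.05, edgeR) that had the same sign at P22, beside the share over all genes tested in both runs; n is the number of genes and the dashed line marks 50%. Filled bars use all 6 libraries, open bars leave out injured replicate 1; the P12-lower genes go from 32.3% to 60.1%.

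Whether the effect itself differed between runs was tested in a fit of 36 libraries over 14605 genes, which held the injured and control groups of all 6 runs (both routes at P7, P12 and P22). Against the intravenous run at P22 no gene (0%) had a different injury effect by edgeR at an adjusted p under 0.05 (DESeq2 called 0 as well, and 1196 genes had an unadjusted p under 0.05 in edgeR). Against P7, 151 genes (1.03%) had a higher and 80 (0.548%) a lower effect at P22, which became 56 (0.379%) and 46 (0.311%) without injured replicate 1. Against P12 there were 20 (0.137%) and 25 (0.171%), which became 2 (0.0135%) and 2 (0.0135%). Each run is also a separate age or route and a separate sequencing run, and P7 had another dissociation kit, which cannot be told apart from age.

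Of the genes in these differences, Ankrd55, Enpp6, Gpd1, Rasgrp3, Sdc1, Cabp7, Plin2, Csf1 and Mobp were chosen for their change at P7 or P12. They are therefore selected for a large effect at that age. Fcgr3a, Mmp9, Igf1 and Arc were instead taken from the lists by their p at P22, and Igf1 was also in the panel. Ankrd55, an ankyrin repeat gene, was 3.42 log2 units lower in the injured group at P7 and −0.38 ± 0.20 at P22 (87.6, 73.0 and 126 against 126, 133 and 113 CPM), a difference of 3.07 (edgeR adjusted p 4.39e-06). Enpp6, an enzyme of new oligodendrocytes, went from −2.80 to −0.43 ± 0.36, and Gpd1, glycerol-3-phosphate dehydrogenase, from −1.63 to 0.21 ± 0.27. Rasgrp3, a Ras exchange factor, was −1.05 at P7 and −0.01 ± 0.11 at P22, and the proteoglycan gene Sdc1 2.10 and 0.52 ± 0.27. The low-affinity IgG receptor gene Fcgr3a was −0.83 at P7 and 0.46 ± 0.18 at P22, where it was 0.11 without injured replicate 1. The differences of these 6 genes from P7 passed the edgeR test with and without that library.

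From the neutrophil list, 6 of 16 genes had a lower effect at P22 than at P7, and 7 without injured replicate 1 (0.548% and 0.311% over all genes). They include S100a8 (2.61 at P7), S100a9 (2.58) and Mmp9 (1.98), whose groups at P22 are given above. The summed neutrophil level at P22 was 446 to 569 CPM in the injured and 503 to 582 CPM in the control libraries, and the part of neutrophils in the difference was not tested. Of 41 cell cycle genes 8 had a higher effect at P22 than at P7, where their list median was −0.83. Without injured replicate 1 there were 3. The shares over all genes were 1.03% and, without that library, 0.379%. In total 5 list members of cholesterol synthesis (of 25) were higher by this test, and 1 without injured replicate 1, beside the same shares over all genes.

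Against P12 the named genes were Cabp7, a calcium-binding protein, at −2.34 at P12 and 0.11 ± 0.27 at P22, Plin2, a lipid droplet coat protein, at 0.81 and −0.18 ± 0.10, Igf1, a growth factor of microglia in developing white matter, at 0.96 and −0.29 ± 0.15, and Csf1, the microglial growth factor, at 1.22 and −0.05 ± 0.18. Mobp, a myelin protein, was −1.79 at P12 and 0.04 ± 0.22 at P22. Arc, an immediate early gene, was 1.47 at P12 and −0.54 ± 0.18 at P22 (7.47, 8.31 and 6.85 against 12.8, 9.12 and 11.1 CPM, no overlap). Without injured replicate 1 the differences of Cabp7 and Plin2 passed the edgeR test, and those of Igf1, Csf1, Mobp and Arc did not, with adjusted p of 0.0648 to 0.108. In the disease-associated and axon-tract list 4 of 27 genes had a lower effect at P22 than at P12, and 1 without injured replicate 1. The shares over all genes were 0.171% and, without that library, 0.0135%.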

How the data were processed

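Raw counts per gene for all 90 samples were deposited by the authors in a table of 32623 genes. They are whole read counts, for which the submitters' processing notes name HTSeq 0.5.3, STAR 2.7.2d, DESeq2 1.8.1 and SAMtools. The sources used here name neither the genome build nor the strand setting of the counting. Samples were grouped by title. The 15 libraries of the P22 intranasal run (14.6 to 26.1 M counts) were fitted together with edgeR 4.0.16 (R 4.3.3) after filterByExpr (minimum count 10, minimum total 15) and TMM scaling, with group means and a quasi-likelihood test of injured minus control. Genes were called at a Benjamini-Hochberg adjusted p under 0.05 over 13594 genes. Differences between runs were tested in 1 fit of 36 libraries. SE is the log2 fold change divided by the root of F.

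Of 753 genes in 34 lists, 732 matched the table. Members and lists were chosen with earlier results of these data known. The text names the 10 genes with the smallest p in each direction among those averaging a log2 CPM of 1 or more, a non-provisional symbol and no overlap between groups, up to 3 per list, a panel, genes that any alternative called, and up to 6 per direction called at P7 or P12. Other mast cell, class II and neutrophil members were named after their values were seen. Alternatives were RLE scaling, no low-count filter, the 6 libraries alone, DESeq2 1.42.0, limma-voom 3.58.1, a replicate block and leaving out each library. Fits without injured replicate 1 for differences, lists and shared signs were added after seeing the data. One gene that the rule takes is not reported here. Scripts were tested on simulated data.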

Additional observations from a re-analysis of the deposited data

Results flagged for a closer look

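The values here are differences of the injury effect between P22 and an earlier intranasal run, on the log2 scale (P22 minus the earlier age). Each was picked out because an interaction test in edgeR's quasi-likelihood fit of 36 libraries gave an adjusted p under 0.05. Those genes that were named for their change at P7 or P12 were selected for a large earlier effect.

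From P7, a higher effect at P22 was found for Tbx1 at 3.81 (adjusted p 0.0403), Ankrd55 at 3.07 (4.39e-06), Enpp6 at 2.40 (0.0432), Gpd1 at 1.87 (0.00731), Fcgr3a at 1.32 (0.00682), Rasgrp3 at 1.07 (0.000693) and Cst3, the protease inhibitor cystatin C, at 0.82 (0.044). A lower effect was found for AABR07000137.1 at −4.69 (0.044), S100a9 at −2.84 (0.0212), Mmp9 at −2.70 (0.0117), S100a8 at −2.63 (0.0388), Ccl12 at −2.03 (0.0184), Sdc1 at −1.56 (0.0075), Zc3h12c at −1.44 (0.0467), Cd44 at −1.38 (0.0142) and Nedd4l at −0.56 (0.0435). Without injured replicate 1, those of Tbx1 (adjusted p 0.0818), AABR07000137.1 (0.0903), Cst3 (0.187), Zc3h12c (0.14) and Nedd4l (0.15) no longer passed, and the other 11 did.

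From P12, a higher effect at P22 was found for Cabp7 at 2.48 (0.00191) and Mobp at 1.85 (0.0403), and a lower effect for Arc at −1.99 (0.0251), Csf1 at −1.26 (0.0332), Igf1 at −1.22 (0.0332) and Plin2 at −0.97 (0.00525). Only Cabp7 (0.00371) and Plin2 (0.0368) passed without injured replicate 1. Age, sequencing run and, for P7, the dissociation kit cannot be told apart in these differences.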

How the results depend on the processing

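No gene was called in the injured against control comparison with RLE scaling (0) or with the replicate block (0), 1 was called without the low-count filter (Tbx1), 1 with the 6 libraries alone (AABR07000137.1), 1 by limma-voom (Tbx1) and 9 by DESeq2. Leaving out 1 library gave 0 to 1 (Ephb1 without injured replicate 3, Tbx1 without control replicate 2). The 646 genes at an unadjusted p under 0.05 became 305 with the 6 libraries alone and 382 to 1851 when 1 library was left out: of the injured libraries, leaving out replicate 1 gave 382, replicate 2 gave 1609 and replicate 3 gave 1851. Departures from the group mean in same-numbered injured and control samples correlated across genes by 0.031, 0.104 and −0.028, so the numbers were not taken to pair them. The 231 genes whose injury effect differed from P7 became 485 by DESeq2, 2 with the 12 libraries alone, 109 with the replicate block, 102 without injured replicate 1 and 2 to 29 when 1 replicate number was left out. The 45 that differed from P12 became 233, 2, 10, 4 and 0 to 1 in the same order. Against the intravenous run the count was 0, and 0 to 11 when 1 replicate number was left out.

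For genes called at an earlier age, the share with the same sign at P22 was 53.6% for P7-higher genes called by DESeq2, and without injured replicate 1 it was 60.2% for P7-lower, 62.0% for P12-higher and 60.1% for P12-lower genes. Of 960 values of the 80 genes named, 920 kept their direction and side of the threshold, 14 passed it under an alternative and 26, in 12 genes, had the other sign. Il1b was −0.000727 without the low-count filter and −0.00398 with the replicate block, and Myd88 −0.010 without the filter and −0.00359 with the 6 libraries alone. When 1 library was left out, the values ran from −0.063 to 0.36 for Gata2, −0.090 to 0.151 for Il1b, −0.217 to 0.28 for Il1rn, −0.326 to 0.13 for Il1rap, −0.038 to 0.0297 for Myd88, −0.493 to 0.00263 for Cx3cr1, −1.03 to 0.324 for S100a8, −1.07 to 0.076 for S100a9, −0.089 to 0.061 for Rasgrp3, −0.0495 to 0.387 for Gpd1, −0.129 to 0.162 for Mobp and −0.214 to 0.074 for Csf1.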

Other observations

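Glucocorticoid response genes, a readout of adrenal steroid signalling, had a median log2 fold change of 0.13 over 15 genes. At an unadjusted p under 0.05 in edgeR's test, 2 were higher and 0 lower (2.83% and 1.92% over all genes). Map3k6, a kinase of the stress-activated pathway, was at 3.23, 1.74 and 2.20 CPM in the injured and 0.907, 1.05 and 1.30 CPM in the control libraries (1.13 ± 0.32), with no overlap. Per1, a clock gene that glucocorticoids induce, was at 153, 219 and 221 CPM against 119, 104 and 200 CPM (0.49 ± 0.23), with overlap, and all 9 cell-treated libraries were above every control. The edgeR adjusted p was 0.755 for both. Immediate early genes, which also respond to tissue dissociation, had a median of 0.17 over 30 genes with all libraries and −0.02 without injured replicate 1.

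Among LXR targets, which export cholesterol from cells, 8 of 16 genes had a positive sign. Abcg1, a sterol exporter, was at 204, 316 and 229 CPM in the injured against 149, 183 and 227 CPM in the control libraries, a log2 fold change of 0.42 ± 0.16. In the cell cycle list the genes past the unadjusted threshold went in opposite directions: the mitotic kinesin Kif20a was −0.63 ± 0.24 and thymidylate synthase Tyms −0.46 ± 0.21, while the DNA repair enzyme Ung was 0.51 ± 0.20. None of these genes passed the adjusted threshold, and without injured replicate 1 no cell cycle gene was past the unadjusted one.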
